A study of Mus musculus with 6 samples.

Results

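The 10 genes described here encode the enzymes that write, copy, oxidise and remove cytosine methylation in mouse DNA, with their close partners: Tet1, Tet2, Tet3, Dnmt1, Dnmt3a, Dnmt3b, Dnmt3l, Uhrf1, Uhrf2 and Tdg. They were taken by symbol from 35865 genes to which the listed transcripts were mapped, and all 10 were found, with 97 listed transcripts between them. The material was total RNA of cardiac macrophages sorted from digested hearts of C57BL/6J mice, the cells being derived from donor haematopoietic progenitors. The donor cells were either Tet2 deficient (labelled Tet2 KO, Tet2-/-) or wild type (labelled Tet2 WT, Tet2+/+), with 3 libraries each, and the study concerned the heart in mice that carried such cells without conditioning. Age, sex, the sort gate and the share of donor cells are not given in the sources used here, nor is the part of Tet2 that was deleted. Whether the 3 libraries of each genotype come from different animals is not in the labels; p-values therefore reflect the scatter among libraries, and part of it may be technical.

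DNA methyltransferases place methyl groups on cytosines, mostly where a cytosine precedes a guanine: Dnmt3a and Dnmt3b set new marks, and Dnmt1, guided by Uhrf1, copies them at replication. TET enzymes oxidise methylcytosine with iron, oxygen and 2-oxoglutarate, and the glycosylase Tdg excises the further oxidised bases, so that methylation is lost. Mutations of TET2 and DNMT3A in blood stem cells are the best known drivers of clonal haematopoiesis, whose macrophages reach tissues such as the heart.

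All 10 genes passed the filter on low counts, and 2 of the 10 were called at an adjusted p under 0.05 by edgeR's quasi-likelihood test across 16386 genes: Dnmt3a was higher and Dnmt3l lower in Tet2 KO. Over all genes tested the same rule called 16.2%, with 6.11% higher and 10.1% lower, so the share of members called is near that background. In counts scaled to library size (CPM, TMM-normalized), the 3 libraries of one genotype lay wholly above those of the other for 4 members, Tet2 and Dnmt3a higher and Tet1 and Dnmt3l lower in Tet2 KO, against 34.5% of all genes. Groups overlapped for Tet3, Dnmt1, Dnmt3b, Uhrf1, Uhrf2 and Tdg.

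Depth ran from 37349505 to 55771087 estimated counts per library. The labelled cell type was checked on 16 pan-macrophage markers, which summed to 32540 to 38194 CPM in Tet2 KO against 20790 to 28358 CPM in Tet2 WT; 12 of 16 were called higher and 0 lower. All 18 fibroblast markers were called lower in Tet2 KO (2237 to 4174 against 17189 to 32005 CPM, none at 0 in every library). In bulk RNA, fewer cells of a type and less RNA per cell cannot be told apart. Of the other marker lists, B cell markers had 3 of 6 called higher, erythroid and neutrophil markers 1 of 5 and 1 of 3 higher, and pericyte and endothelial markers 2 of 10 and 1 of 12 lower.

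**Figure D1:**
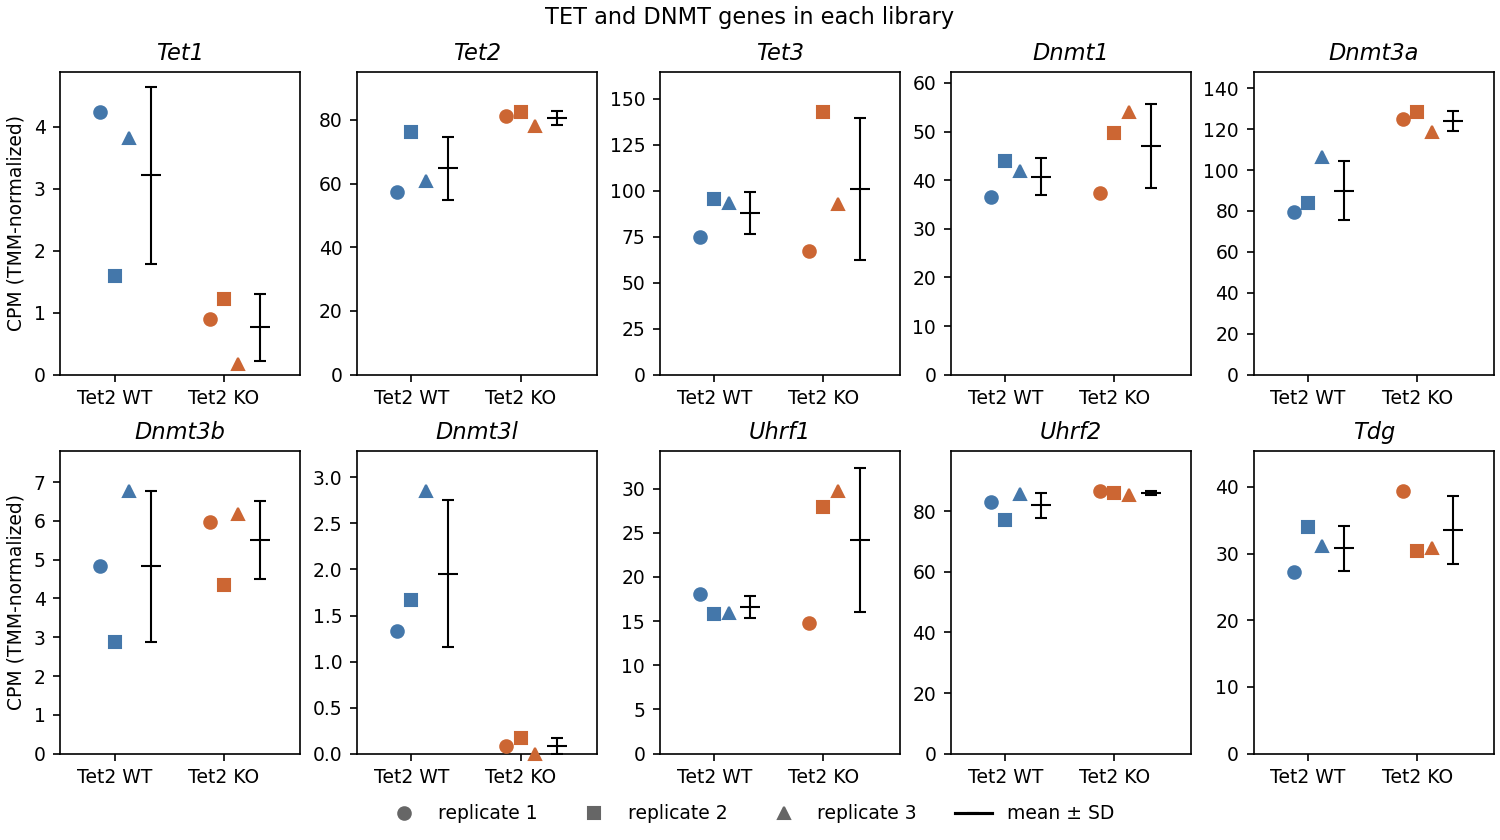
CPM of each of the 10 genes (vertical axis, from 0, 1 scale per gene) in the 3 Tet2 WT and 3 Tet2 KO libraries; symbols give the replicate number and black marks the mean ± SD. Tet2 and Dnmt3a lie higher and Tet1 and Dnmt3l lower in every Tet2 KO library, and the other 6 genes overlap.

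Tet2 (ENSMUSG00000040943.12), on the minus strand of chromosome 3 from 133463679 to 133545139 (GRCm38, as all positions here), is the gene targeted in the donors. It stood at 81.1, 82.6 and 78.2 CPM in the Tet2 KO libraries against 57.5, 76.1 and 60.8 CPM in Tet2 WT. Every Tet2 KO library was above every Tet2 WT library, yet the gene was not called (log2 fold change 0.32 ± 0.14 SE, edgeR adjusted p = 0.159). With length-scaled TPM counts it was called higher (0.43, edgeR adjusted p = 0.0458). That was the only 1 of 18 alternatives to call it, and in 2 the sign turned. Because the deleted part is not named, this level is no check of the knockout.

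What differed in kind was a transcript to which kallisto assigned a minority of the gene's estimated counts in Tet2 KO (24.4%, 14.5% and 3.61%). Of the 10 annotated Tet2 transcripts 7 could be tested, and 1 was called, ENSMUST00000196398.4, a coding transcript of 12 exons, against 2.66% of all 53249 transcripts tested (0.447% higher and 2.21% lower in Tet2 KO). This 12-exon transcript received 688, 617 and 147 estimated counts in Tet2 KO against 0.00108, 0.545 and under 0.001 in Tet2 WT. Set against a floor of 3 counts over the Tet2 WT group, the ratio was 555-fold. This is no lower bound, because kallisto's model allots most of these counts from sequence shared with other transcripts. The 12-exon transcript was thus assigned almost entirely to Tet2 KO libraries (edgeR adjusted p = 0.00902). It was also called in the test of its use against the gene's other transcripts (edgeR diffSpliceDGE adjusted p = 7.8e-11; 0.336% of 47898 transcripts were called), and its share of the TPM (abundance scaled to transcript length and library size) of both full-length coding transcripts was 29.7%, 17.7% and 4.46% in Tet2 KO and at most 0.0163% in Tet2 WT (two-sided p = 0.1 in an exact permutation test, the lowest value 3 against 3 allows). Within Tet2 KO the share thus spread widely. The transcript's call was lost when any 1 of the Tet2 WT libraries was left out (edgeR adjusted p 0.0563 to 0.0579), and its use was not called by limma's diffSplice (adjusted p = 0.15). In simulated data 39.2% of the calls of diffSpliceDGE fell outside the changed genes, so its adjusted p is to be read beside the counts.

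The 12-exon transcript can be told from ENSMUST00000098603.7, the longest coding transcript with 11 exons, by a 24-base exon at chromosome 3, 133479342 to 133479365, between exons 6 and 7 of the latter. The 12-exon transcript also begins later (base 771 against 749 from the gene's 5' end) and ends earlier (base 81300 against 81460). Of its 31-base stretches, the length kallisto matches by default, 50 occur in no other annotated transcript, and all 50 overlap this exon. The added exon is a multiple of 3 bases long, inside the coding sequence, and its bases also lie within the single exon of ENSMUST00000200203.1, which retains that intron. The transcript sequences over the junction, from GENCODE M21, are printed because all stretches unique to the 12-exon transcript overlap the added exon. They show 20 bases on each side in lower case and the added exon in capitals.
ENSMUST00000196398.4 (12 exons): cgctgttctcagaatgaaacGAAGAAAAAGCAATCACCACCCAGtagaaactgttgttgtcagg
ENSMUST00000098603.7 (11 exons): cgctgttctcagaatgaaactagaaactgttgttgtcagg
Since kallisto divides the reads of the shared exons in proportion to such distinguishing reads, the 688 or 147 counts are model estimates over the whole transcript and not counts of reads on the exon.

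The other Tet2 transcripts were not called. The 11-exon transcript itself stood at 6.77, 7.74 and 8.75 TPM in Tet2 KO against 6.91, 9.29 and 7.81 TPM in Tet2 WT, with overlapping groups. Of the transcripts at the 5' end, ENSMUST00000197118.4, a short transcript that ends in exon 3, had 27.8% as its median share of the gene's TPM in Tet2 KO against 24.6% in Tet2 WT, and ENSMUST00000196292.1, which retains 478 bases after exon 2 (133513457 to 133513934), had 16.8% and 12.2%. In TPM both were higher in every Tet2 KO library than in any Tet2 WT library, whereas in share of the gene's TPM ENSMUST00000197118.4 overlapped; neither was called (edgeR adjusted p = 0.466 and 0.284). ENSMUST00000200203.1, which covers exon 6, 341 bases of the intron before it and 1077 bases of the one after it, had a median share of 21.1% and 25.1% with overlapping groups. The full-length coding pair held 28.6% to 33.9% of the gene's TPM in Tet2 KO and 29.7% to 35.6% in Tet2 WT, but 82.4% to 83.5% and 78.3% to 80.3% of its estimated counts, since TPM weights short transcripts more. In TPM the pair made up 9.39 ± 0.235 of 30.2 TPM in Tet2 KO against 8.0 ± 1.20 of 24.7 TPM in Tet2 WT (mean ± SD, n = 3). At the 3' end, ENSMUST00000197211.1, which begins in the intron before exon 9, held 0 estimated counts in every Tet2 KO library against 30.3, 107 and 6.69 in Tet2 WT. In Tet2 WT it was 41.9-fold higher against a floor of 3 counts over the Tet2 KO group, which is no lower bound for model estimates. It was below the filter for testing and was chosen for mention after its values were seen. Of the 7 Tet2 transcripts tested, 3 did not overlap between genotypes in TPM, against 23.3% of all transcripts tested.

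**Figure D2:**
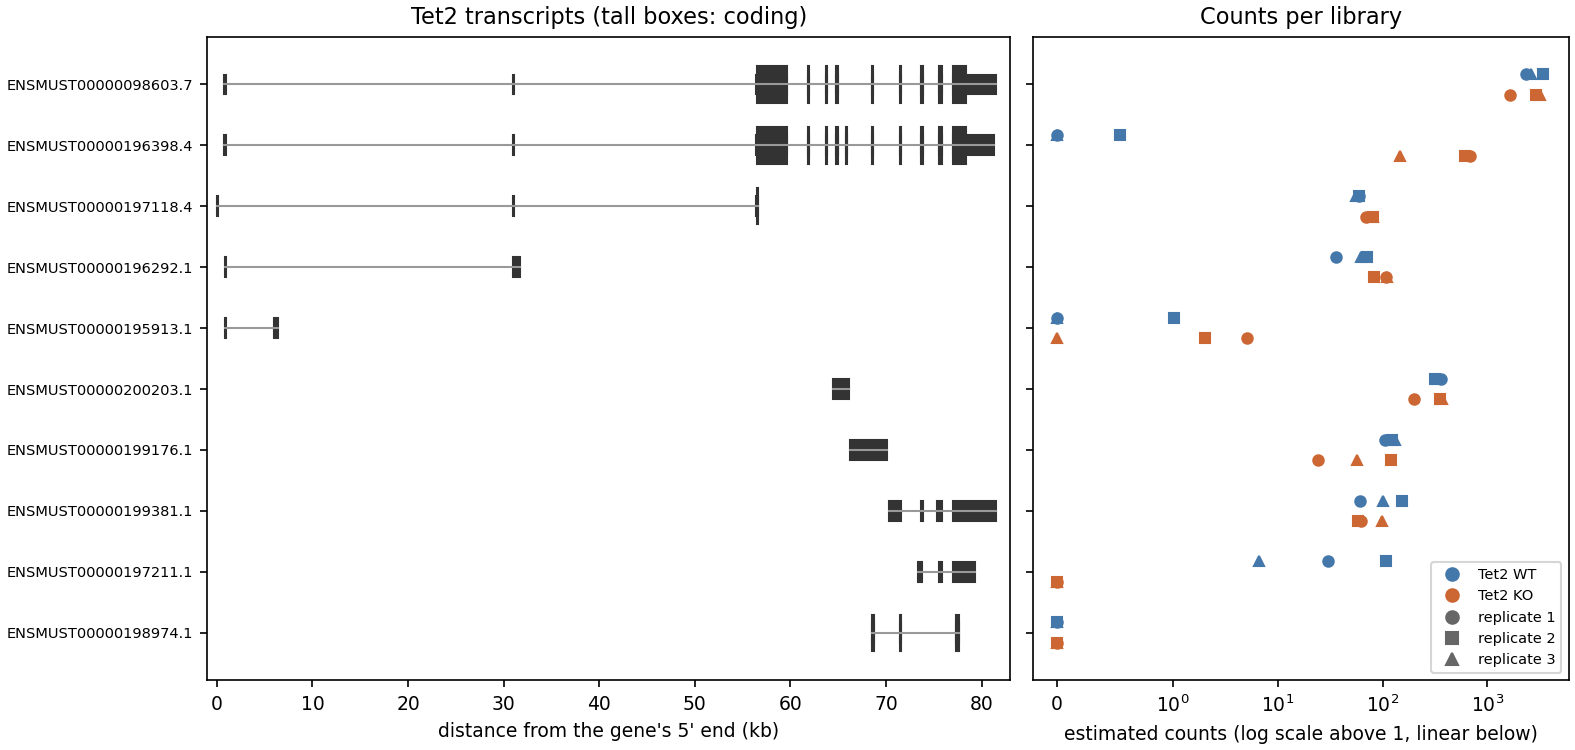
Left, exons of the 10 Tet2 transcripts by distance from the gene's 5' end (kb; tall boxes are coding, low boxes untranslated or non-coding). Right, estimated counts per library (log scale above 1, linear below): ENSMUST00000196398.4 has 147 to 688 counts in Tet2 KO but under 1 in Tet2 WT, ENSMUST00000197211.1 has 0 in Tet2 KO only, and ENSMUST00000098603.7 overlaps.

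Tet1 (ENSMUSG00000047146.17, chromosome 10, 62804570 to 62908996, minus strand), best known from embryonic stem and germ cells, had the lowest TPM of the members in the mean over the 6 libraries, though in Tet2 KO Dnmt3l was lower in mean TPM, and in both genotypes in mean CPM. It was read at 0.896, 1.23 and 0.173 CPM in Tet2 KO against 4.24, 1.59 and 3.82 CPM in Tet2 WT. In CPM the genotypes did not overlap, but at 9.04 to 222 estimated counts per library the difference missed the threshold (log2 fold change -2.08 ± 0.67 SE, edgeR adjusted p = 0.0651). In TPM they overlapped, at 0.308, 1.03 and 0.0156 in Tet2 KO against 1.86, 0.736 and 1.24 in Tet2 WT. Tet1 passed under 6 of 18 alternatives, among them DESeq2 (adjusted p = 0.00951) and, with no filter on low counts, edgeR itself (adjusted p = 0.0452). It did not pass with length-scaled TPM counts (-1.31, edgeR adjusted p = 0.454) or with limma on log2(TPM + 1) and log2(TPM + 0.1) (adjusted p = 0.127 and 0.161). Its longest coding transcript held at most 0.05 TPM in Tet2 KO and at most 0.292 TPM in Tet2 WT. Fibroblast markers were higher in the same libraries as Tet1, and their part in the difference was not tested apart from genotype.

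Tet3 (ENSMUSG00000034832.15, chromosome 6, 83362373 to 83459084, minus strand), the TET enzyme of the oocyte and of many differentiated cells, stood at 67.1, 143 and 92.6 CPM in Tet2 KO against 75.1, 95.3 and 93.4 CPM in Tet2 WT. Replicate 2 of Tet2 KO was the highest and replicate 1 of Tet2 KO the lowest of all 6, so the Tet2 KO libraries spanned those of Tet2 WT. The log2 fold change was 0.20 ± 0.25 (SE, edgeR adjusted p = 0.666), and it was -0.13 without that highest library. All 4 Tet3 transcripts tested overlapped between genotypes.

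Dnmt3a (ENSMUSG00000020661.15, chromosome 12, 3806007 to 3914443, plus strand) had the highest TPM of the members in the mean over the 6 libraries. It stood at 125, 129 and 119 CPM in Tet2 KO against 79.4, 84.1 and 106 CPM in Tet2 WT. All Tet2 KO libraries were above all Tet2 WT libraries, by 1.38-fold in the means (log2 fold change 0.46 ± 0.14 SE, edgeR adjusted p = 0.0480). The call rested on a narrow margin: it was lost when any 1 of 5 libraries was left out (edgeR adjusted p 0.0746 to 0.174; without Tet2 WT replicate 3 it was 0.0267) and under RLE scaling (0.0549). Pan-macrophage markers were higher in the same libraries, and scaled to them the log2 fold change was -0.23 (edgeR adjusted p = 0.328). That scaling moved the median of all genes by -0.69. Relative to this median Dnmt3a was at 0.46, but taking off the median only undoes the scaling, so this value is no separate check.

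Dnmt3a is transcribed from a pair of promoters that give a long and a short protein, the short one lacking the amino-terminal end. The RefSeq windows of GRCm38.p6 from 250 bases before to 50 bases after each start are shown for 1 start of each form, with every CG in capitals, since the starts separate the forms compared next. The long-form window (start of Dnmt3a-218) has 47 CG, as many as 1.44% of all 32851 such windows, and the short-form window (start of Dnmt3a-205 and Dnmt3a-203) has 18, reached by 29.7%. The other long-form start, that of Dnmt3a-201 at 3806980, lies upstream of the printed one, and its window, which overlaps the one shown, has 46 CG. CG reads the same on both strands, 94.6% of all windows hold at least 1, and the median is 7.
Long form, chr12:3806910-3807209, plus strand: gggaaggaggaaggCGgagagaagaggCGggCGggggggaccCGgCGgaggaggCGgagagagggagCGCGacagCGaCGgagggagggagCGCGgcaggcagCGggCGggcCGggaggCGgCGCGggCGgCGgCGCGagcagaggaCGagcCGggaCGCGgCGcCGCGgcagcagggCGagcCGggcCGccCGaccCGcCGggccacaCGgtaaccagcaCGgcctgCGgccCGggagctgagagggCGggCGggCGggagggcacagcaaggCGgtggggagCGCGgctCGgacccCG
Short form, chr12:3891494-3891793, plus strand: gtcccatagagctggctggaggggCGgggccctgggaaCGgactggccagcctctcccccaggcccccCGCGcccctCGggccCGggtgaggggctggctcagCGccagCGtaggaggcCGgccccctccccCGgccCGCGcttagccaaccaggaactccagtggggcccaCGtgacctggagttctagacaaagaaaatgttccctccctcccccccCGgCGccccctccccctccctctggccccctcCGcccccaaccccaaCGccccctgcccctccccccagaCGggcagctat

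Both forms were transcribed in every library. The short coding form stood at 30.4, 19.2 and 24.3 TPM in Tet2 KO against 15.9, 17.7 and 21.2 TPM in Tet2 WT. The long coding form stood at 4.41, 8.33 and 6.71 TPM in Tet2 KO against 5.39, 5.40 and 7.81 TPM in Tet2 WT. Both overlapped between the genotypes, and the short form made up 78.5 ± 8.79% of the pair in Tet2 KO against 74.8 ± 1.81% in Tet2 WT (mean ± SD, n = 3 each; exact permutation test, two-sided p = 0.6). In estimated counts, which grow with transcript length, the short form's share was 47.5 ± 12.8% and 41.0 ± 2.53%.

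None of the 11 Dnmt3a transcripts tested was called, for level or for use. Dnmt3a-205, the main short-form transcript, held a median 38.5% of the gene's TPM in Tet2 KO against 37.3% in Tet2 WT. The retained-intron transcript Dnmt3a-202 held 23.3% and 24.5%. Dnmt3a-204, a short coding transcript with a median share of 9.63% and 7.38%, did not overlap, at 10.6, 5.61 and 6.07 TPM in Tet2 KO against 3.49, 2.91 and 4.32 TPM in Tet2 WT (edgeR adjusted p = 0.136), and was chosen for mention after its values were seen. The longest coding transcript, Dnmt3a-201, stood at 4.10 ± 0.722 and 4.04 ± 1.13 TPM. Single transcripts, as opposed to the long and short forms, are separated by few bases: 56 of 9655 stretches of 31 bases are unique to Dnmt3a-201 and 16 of 2298 to Dnmt3a-205. Dnmt3a-218 was listed at 0 in Tet2 KO replicate 1 while the other 5 libraries held 419 to 1335 counts.

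**Figure D3:**
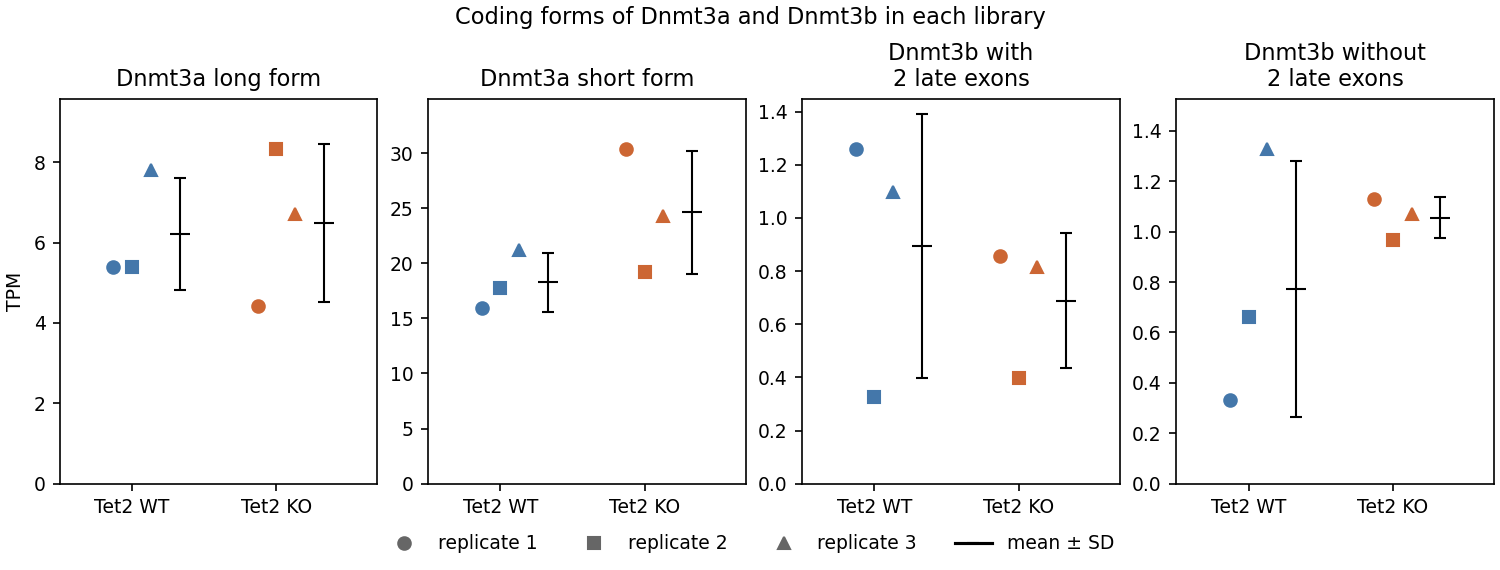
TPM (vertical axes, from 0) of the long and short coding forms of Dnmt3a and of Dnmt3b coding transcripts with and without an exon pair near the 3' end, in each library; black marks are mean ± SD, n = 3. In all 4 panels the genotypes overlap.

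Dnmt3b (ENSMUSG00000027478.15, chromosome 2, 153649450 to 153687730, plus strand), the other de novo methyltransferase, was read at 5.96, 4.35 and 6.19 CPM in Tet2 KO against 4.82, 2.88 and 6.78 CPM in Tet2 WT. The groups overlapped (log2 fold change 0.19 ± 0.35 SE, edgeR adjusted p = 0.782), and the sign turned in 5 of 18 alternatives. Its transcripts differ by an exon pair (153683608 to 153683677 and 153684359 to 153684477), without which the catalytic domain is incomplete. Coding transcripts without the pair made up 61.5 ± 8.15% of the coding TPM in Tet2 KO against 47.5 ± 23.9% in Tet2 WT (mean ± SD, n = 3 each; exact permutation test, two-sided p = 0.4). Dnmt3b-205, which lacks it, was the most abundant, with a median share of the gene's TPM of 35.8% and 28.8%. Dnmt3b-207 followed with 21.3% and 22.8%, Dnmt3b-212, a retained-intron transcript, with 20.4% and 17.1%, and Dnmt3b-211, another, with 4.70% and 21.5%. The median share of Dnmt3b-204 was 19.2% and 0%, that of Dnmt3b-203 1.16% and 12.1%, and that of the longest coding transcript, Dnmt3b-210, 0% in both. These shares changed from library to library: Dnmt3b-204 was listed at 0 in Tet2 KO replicate 1 and at 58.9 and 111 counts in the others. None of the 5 transcripts tested was called, and none of the 10 coding transcripts has a 31-base stretch of its own. The gene held 160 to 368 counts per library, and 3 libraries against 3 cannot give a p under 0.1 in this test. Of the stretches of its longest coding transcript 15.6% are shared with Dnmt3c, a germ cell paralogue that itself held at most 3.14 counts.

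Dnmt3l (ENSMUSG00000000730.13, chromosome 10, 78041947 to 78063622, plus strand) encodes a catalytically inactive partner of Dnmt3a and Dnmt3b, known from germ cells. It held 3, 9 and 0 estimated counts in Tet2 KO against 70, 93 and 155 in Tet2 WT. This is 0.0864, 0.175 and 0 CPM against 1.34, 1.67 and 2.86 CPM, where 3 counts in the library at 0 would be 0.0575 CPM. The gene was near the limit of counting in every Tet2 KO library and low but present in every Tet2 WT library. The mean was 22.4-fold higher in Tet2 WT (log2 fold change -4.45 ± 0.86 SE, edgeR adjusted p = 0.00737), and the difference was called under 17 of 18 alternatives, all 6 left-out libraries included (edgeR adjusted p 0.0087 to 0.0387). The exception was the fit with the fibroblast marker level as a covariate (-7.41, edgeR adjusted p = 0.529), a measure that does not overlap between the genotypes and so cannot be told apart from them.

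Dnmt3l has an internal start in addition to its upstream ones. By kallisto's estimate, transcripts from the internal start at 78055335 held 33.8, 38.2 and 85.0 counts in Tet2 WT, and full coding transcripts from the upstream starts 15.3, 28.1 and 33.2. Dnmt3l-203, from the internal start, and Dnmt3l-207, a retained-intron transcript, were the 2 tested; both were lower without overlap (edgeR adjusted p = 0.0566 and 0.0748), and both were singled out after their values were seen. The window at the internal start, printed for contrast with that of Dnmt3a, has 3 CG. Those at the upstream starts of Dnmt3l-205 and Dnmt3l-201 have 6 and 4. Dnmt3l-205 held 0 counts in every library, and Dnmt3l-208, another upstream transcript, starts within 60 bases of none of these starts.
Dnmt3l internal start, chr10:78055085-78055384, plus strand: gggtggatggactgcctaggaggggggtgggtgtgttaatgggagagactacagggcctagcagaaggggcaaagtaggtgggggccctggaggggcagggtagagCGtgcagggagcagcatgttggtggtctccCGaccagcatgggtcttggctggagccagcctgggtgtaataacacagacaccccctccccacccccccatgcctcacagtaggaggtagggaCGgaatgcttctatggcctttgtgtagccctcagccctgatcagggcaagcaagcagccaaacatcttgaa
None of the 31-base stretches of the longest coding transcript occurs in another gene. The neighbouring gene Aire was at most 0.763 CPM in any library, with overlapping groups (log2 fold change -1.26 ± 0.91 SE, edgeR adjusted p = 0.420).

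**Figure D4:**
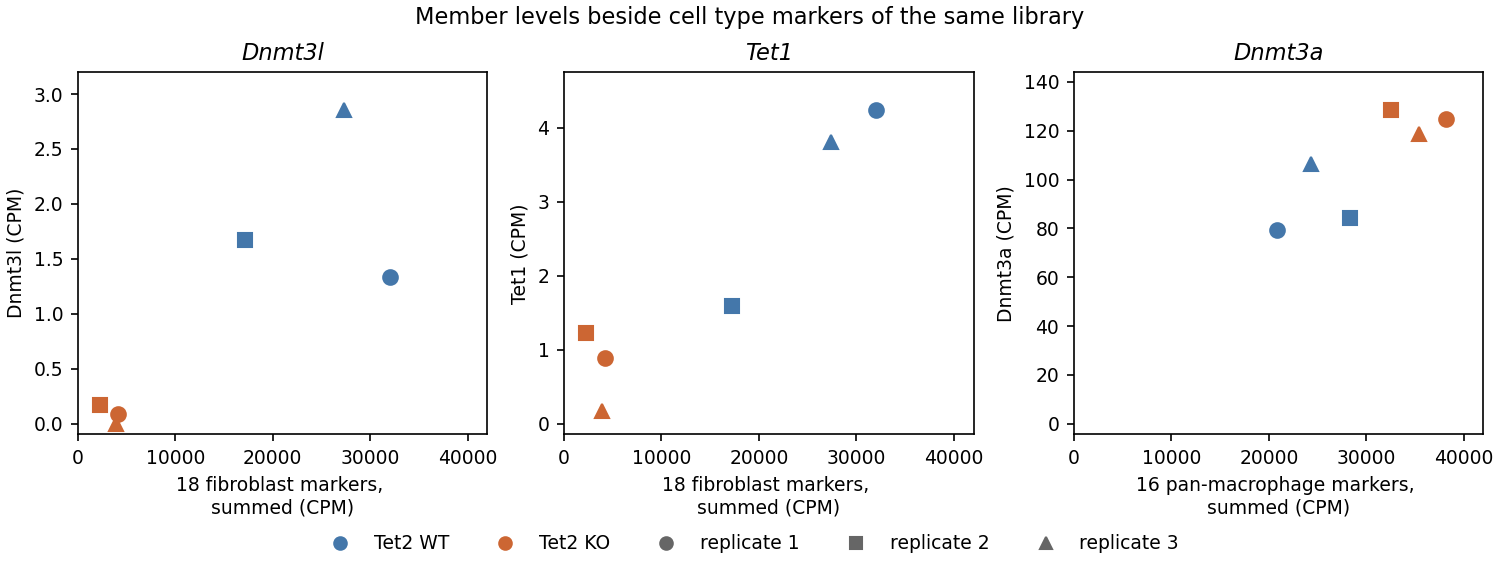
Dnmt3l and Tet1 against the summed CPM of 18 fibroblast markers, and Dnmt3a against that of 16 pan-macrophage markers (horizontal axes in CPM), 1 point per library. Both marker sums separate the genotypes, as the 3 genes do, so no trend within a genotype can be read from 3 points.

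Dnmt1 (ENSMUSG00000004099.16, chromosome 9, 20907209 to 20959888, minus strand), the maintenance methyltransferase, stood at 37.3, 49.6 and 54.1 CPM in Tet2 KO against 36.4, 43.9 and 41.9 CPM in Tet2 WT. The groups overlapped (log2 fold change 0.21 ± 0.16 SE, edgeR adjusted p = 0.463). Uhrf1 (ENSMUSG00000001228.14, chromosome 17, 56303321 to 56323486, plus strand), which binds hemimethylated DNA and brings Dnmt1 to it, stood at 14.8, 28.0 and 29.8 CPM in Tet2 KO against 18, 15.8 and 16 CPM in Tet2 WT. Replicates 2 and 3 of Tet2 KO were above, and replicate 1 below, every Tet2 WT library (log2 fold change 0.55 ± 0.25 SE, edgeR adjusted p = 0.177), and without Tet2 KO replicate 1 Uhrf1 was called higher (0.80, edgeR adjusted p = 0.0130). That library was also the lowest of the Tet2 KO group for Dnmt1 and Tet3, and the shallowest. Of the 31-base stretches of its longest coding transcript 29.3% occur in other genes, mainly the pseudogene Gm5648, which held 0 counts.

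Uhrf2 (ENSMUSG00000024817.13, chromosome 19, 30030513 to 30093722, plus strand), the paralogue of Uhrf1, was the steadiest member. It stood at 86.7, 85.9 and 85.3 CPM in Tet2 KO against 82.9, 77.2 and 85.5 CPM in Tet2 WT, a log2 fold change of 0.07 ± 0.11 (SE, edgeR adjusted p = 0.744). Per length it stood at 41.8 ± 1.98 TPM in Tet2 KO against 45.1 ± 5.66 TPM in Tet2 WT, where Uhrf1 stood at 10.1 ± 3.26 and 7.70 ± 0.203 TPM. None of the 16 transcripts of Dnmt1, Uhrf1 and Uhrf2 tested was called.

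Tdg (ENSMUSG00000034674.18, chromosome 10, 82629828 to 82650799, plus strand), the glycosylase downstream of the TET enzymes, stood at 39.4, 30.4 and 30.8 CPM in Tet2 KO against 27.3, 34.0 and 31.1 CPM in Tet2 WT. The groups overlapped (log2 fold change 0.12 ± 0.16 SE, edgeR adjusted p = 0.673), and without Tet2 KO replicate 1, its highest library, the log2 fold change was -0.0039. A pair of its coding transcripts, looked at after their values were seen, differed in share: Tdg-208 stood at 2.12 ± 0.671 TPM in Tet2 KO against 4.07 ± 0.279 TPM in Tet2 WT without overlap, and Tdg-201 held 64.9%, 70.9% and 59.4% of the gene's TPM in Tet2 KO against 42.7%, 44.5% and 50.5% in Tet2 WT. Neither was called (edgeR adjusted p = 0.208 and 0.283). Tdg-208, of 3502 bases against 2959 for Tdg-201, has a 3' extension of 475 bases (82650325 to 82650799) and also differs elsewhere. Of the stretches of Tdg-208, 337 are shared with Glt8d2, which lies on the other strand. Glt8d2 was called lower in Tet2 KO (1.52 against 14.1 CPM, log2 fold change -3.24 ± 0.44 SE, edgeR adjusted p = 0.00114); whether the counting used strand is not stated, and without it reads of both genes cannot be told apart there. Of the Tdg-208 stretches 75.7% occur in other genes. The processed pseudogenes that share the most, Tdg-ps, Gm9855 and Gm5597, held at most 25.2 counts in a library.

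**Figure D5:**
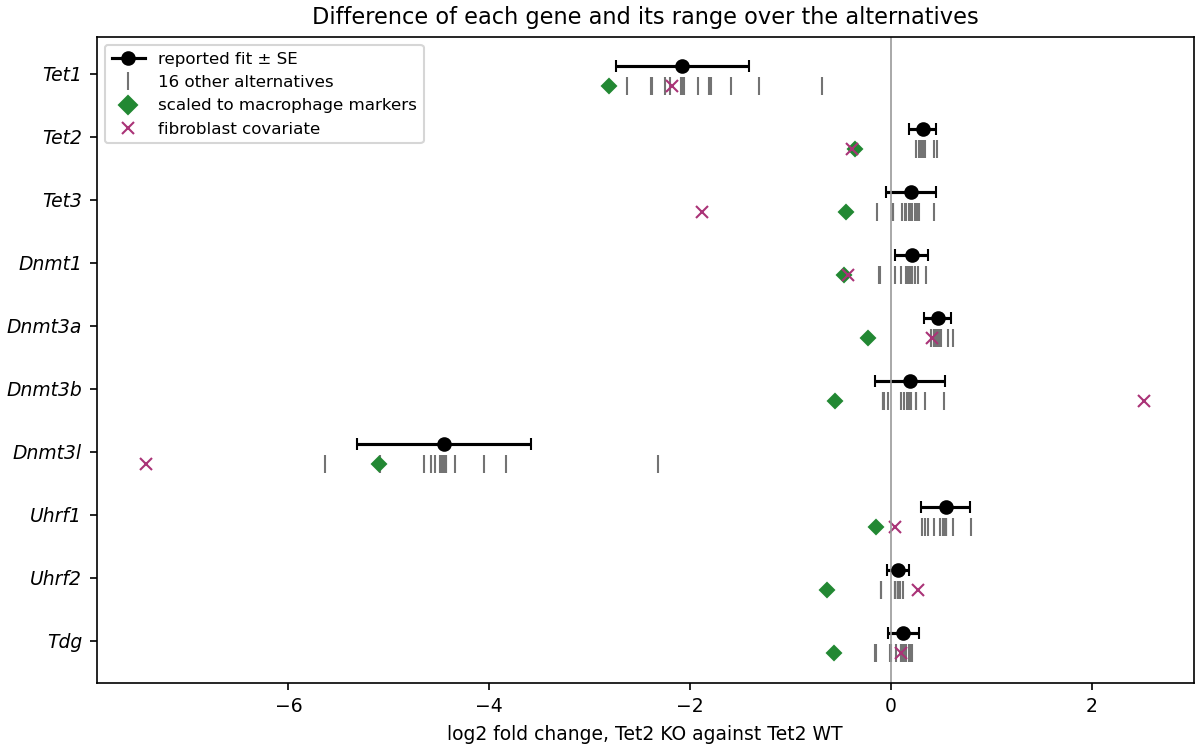
log2 fold change of each gene, Tet2 KO against Tet2 WT (horizontal axis): black points are the reported fit ± SE, grey ticks 16 alternatives, diamonds the scaling to macrophage markers and crosses the fit with fibroblast marker level as covariate. Dnmt3l and Tet1 stay below 0 throughout; Dnmt3a stays above 0 except under the macrophage scaling, where all 10 genes are below 0 and the median of all genes is shifted by -0.69.

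Per length, the order of the mean TPM over the 6 libraries was Dnmt3a (58.1), Uhrf2 (43.4), Tet2 (27.4), Tet3 (24.1), Tdg (18.9), Dnmt1 (16.5), Uhrf1 (8.92), Dnmt3b (2.67), Dnmt3l (2.62) and Tet1 (0.866). In Tet2 KO, Dnmt3a (66.6 ± 7.90 TPM) lay above Uhrf2 (41.8 ± 1.98 TPM) in every library, whereas in Tet2 WT (49.6 ± 8.14 and 45.1 ± 5.66 TPM) the libraries overlapped. Uhrf2 was above Tet2 in all 6 libraries. Tet2 and Tet3 overlapped in both genotypes, Tet3 being 24.7 ± 10.1 TPM in Tet2 KO against 23.5 ± 4.94 TPM in Tet2 WT, and so did Tet3 and Tdg (17.9 ± 3.08 and 19.9 ± 1.95 TPM), whereas Tet2 lay above Tdg in every library. Tdg and Dnmt1 (15.9 ± 2.83 and 17.1 ± 1.07 TPM) overlapped as well. Uhrf1 was below all of these and above Dnmt3b, Dnmt3l and Tet1 in each library. In Tet2 WT Dnmt3b (2.85 ± 1.53 TPM) overlapped with both Dnmt3l (5.06 ± 1.87 TPM) and Tet1 (1.28 ± 0.562 TPM), and Dnmt3l lay above Tet1. The retained-intron transcript Dnmt3l-207, of 409 bases, held 66.5%, 65.4% and 58.0% of Dnmt3l's TPM there. In mean CPM of Tet2 WT Dnmt3l was below Tet1 (1.95 against 3.22), though above it in replicate 2 (1.67 against 1.59). In Tet2 KO Dnmt3l (0.189 ± 0.170 TPM) and Tet1 (0.451 ± 0.523 TPM) overlapped, and both lay below Dnmt3b (2.50 ± 0.981 TPM).

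Genes that work with these enzymes were described by lists. Of all genes tested 16.2% were called, 6.11% higher and 10.1% lower, and their median log2 fold change was 0.0025. The numbers called in each list are to be read against these shares. Of 19 genes for base excision and cytosine deamination, 4 were called higher and 1 lower, with a median of 0.25. Parp1, a sensor of strand breaks, was at 82.9 ± 9.31 CPM in Tet2 KO against 50.2 ± 3.32 CPM in Tet2 WT (log2 fold change 0.72 ± 0.13 SE, edgeR adjusted p = 0.00492), and the cytidine deaminases Apobec3 and Apobec1 had log2 fold changes of 0.62 and 0.65. Neil3, a glycosylase, had 0.73, and the stress-response gene Gadd45a, at 4.82 ± 1.28 against 11.4 ± 0.950 CPM, was called lower (-1.23 ± 0.26 SE, edgeR adjusted p = 0.0106).

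Of 20 genes for TET cofactors and TET partners, 19 were matched and 18 tested; 1 was called higher and 3 lower, with a median of 0.19. The ascorbate transporter Slc23a2 had a log2 fold change of 0.42 ± 0.12 (SE, edgeR adjusted p = 0.0425). The TET2-binding CXXC protein Cxxc5 stood at 9.51 ± 0.799 against 21.3 ± 6.60 CPM (-1.17 ± 0.24 SE, edgeR adjusted p = 0.0104), and Dcaf1, a substrate receptor of an E3 ligase that acts on TET proteins, had -0.53. The list also held Gstt1, a glutathione transferase for which no link to TET enzymes is given here. Gstt1 was 1 of the 3 called lower, at 9.61 ± 2.61 against 48.0 ± 14.7 CPM. The isocitrate dehydrogenases, the succinate dehydrogenase subunits and Fh1, which make or use the metabolites around 2-oxoglutarate, were not called, and neither was Ogt.

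Of 20 tested partners of the methyltransferases 0 were called higher and 1 lower (median 0.16): Cbx5, the heterochromatin protein HP1 alpha, at 30.9 ± 5.27 against 55.6 ± 8.30 CPM (log2 fold change -0.85 ± 0.17 SE, edgeR adjusted p = 0.00847). Of 17 genes of the S-adenosylmethionine cycle, which supplies the methyl donor, 1 was called (Ahcyl2, 0.54 ± 0.13 SE, edgeR adjusted p = 0.0210; median 0.03). Of 26 cell cycle genes 12 were called higher and 0 lower, with a median of 0.57. Among them, Ccnb1 stood at 30.7 ± 4.01 against 11.7 ± 2.77 CPM (1.39 ± 0.20 SE, edgeR adjusted p = 0.00154), and Birc5, Top2a and Tpx2 had log2 fold changes of 0.74, 0.77 and 1.0. Dnmt1 and Uhrf1, whose transcription is known to follow the cell cycle, had 0.21 and 0.55, and were not called.

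The genes most like a member across the 6 libraries were taken by Pearson's r of log2 CPM, as a description; the points share the 2 genotypes. Like Tet2 were Clta, Clec10a and Fabp5 (r = 0.996, 0.995 and 0.995), and like Dnmt3a were Impdh1, Cybc1 and Nr1h2 (0.999, 0.996 and 0.996). Like Dnmt1 were Atg2a, Zfp473 and Chka (0.984, 0.983 and 0.979), and like Uhrf1 were Alg12, Pigf and Tmem268 (0.996, 0.984 and 0.983). Of these 12 only Cybc1 was called between the genotypes (edgeR adjusted p = 0.0430).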

How the data were processed

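RNA from 6 sorted cardiac macrophage samples was sequenced in pairs. The submitters' processing notes name Trim Galore 0.6.4 for trimming, kallisto 0.44.0 for assigning reads to transcripts, and GRCm38; neither annotation release nor strand setting is stated there. The authors deposited an estimated count (not normalized) and a TPM value (scaled within each library) for every transcript, per the file headers. Of 118783 transcripts 116622 (98.2%) matched GENCODE M21 by identifier; the 2161 others held at most 0.67% of a library's counts and were left out.

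Estimated counts were summed per gene and rounded. Genes (16386) and, separately, transcripts (53249) that passed edgeR's expression filter were TMM-scaled and fitted in edgeR 4.0.16 (quasi-likelihood, robust, R 4.3.3), genotype as the only term, Benjamini-Hochberg adjustment over the whole table and a threshold of 0.05. Transcript use was tested with diffSpliceDGE. In simulated data with 200 transcripts changed 4-fold it recovered 33.5% of them, and 39.2% of its calls fell outside the changed genes. Its calls are therefore read beside the counts. SE is the fold change divided by the root of F. For shares and marker sums, exact permutation tests ran over the 20 label assignments. Alternatives were RLE, upper-quartile and macrophage-marker scaling, no filter or at least 1 CPM in 3 libraries, leaving out 1 library at a time, a replicate block, length-scaled TPM counts, DESeq2 1.42.0, limma 3.58.1 (voom, and log2(TPM + x) with x of 1 or 0.1) and a fibroblast covariate. A test of transcript use on log2 ratios (limma) was added after seeing the data. In the same simulated data it recovered 0% of the changed transcripts.

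Precision is set by the 37349505 to 55771087 counts per library and the 3 libraries per genotype; floors cover counting error only. Libraries of the same genotype differed by more than sampling noise. Named were all 10 members; transcripts of Tet2, Dnmt3a and Dnmt3b with a median share of at least 10% of the gene's TPM in either genotype, those called, and the longest coding ones; up to 4 called genes per list and direction by smallest p; and the 3 protein-coding genes (mean log2 CPM of at least 2) most like each of 4 members. The members and lists were chosen with earlier results of these data known. Promoter windows came from RefSeq (GRCm38.p6), where all 10 members had at least 1 (17 in all).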

Additional observations from a re-analysis of the deposited data

How the results depend on the processing

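The direction and the side of the threshold were kept by Dnmt3l in 17 of 18 alternatives, with -7.41 under the fibroblast covariate (edgeR adjusted p = 0.529); its values elsewhere ran from -5.64 to -2.32. Dnmt3a was called in 7 of 18.

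Macrophage-marker scaling gave negative values for all members, among them Tet2 (-0.36), Tet3 (-0.45), Dnmt1 (-0.47), Dnmt3a (-0.23), Dnmt3b (-0.55), Uhrf1 (-0.14), Uhrf2 (-0.64, edgeR adjusted p = 0.0216) and Tdg (-0.57, 0.0342). It moved the median of all genes by -0.69. Relative to that median Uhrf2 stood at 0.06 and Tdg at 0.12, which only undoes the scaling and is no separate check. With macrophage-marker scaling 4 members were called lower and 0 higher, and 6763 genes of the whole table (19 higher, 6744 lower) against 2653 (1001 and 1652). The fibroblast covariate left 0 genes called (1519 at an unadjusted p under 0.05 by edgeR) and 0 members in either direction; it turned Tet2 (-0.39), Tet3 (-1.88) and Dnmt1 (-0.43). limma on log2(TPM + 1) and log2(TPM + 0.1) turned Dnmt1 (-0.11 and -0.12), Dnmt3b (-0.083 and -0.078), Uhrf2 (-0.10 and -0.10) and Tdg (-0.15 and -0.16); 83.4% and 82.8% of their calls were lower, against 62.3%. The second moved the median of all genes by -0.15. Length-scaled TPM counts turned Dnmt3b (-0.032) and Tdg (-0.012). The cause was not tested for any of these.

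Members called higher were 0 under RLE scaling, the replicate block and both TPM fits, 2 with length-scaled TPM counts, and 0 to 1 over the left-out libraries. Members called lower were 2 without the filter, with voom and with DESeq2, and 1 to 2 over the left-out libraries. Leaving out 1 library gave 1382 (without Tet2 WT replicate 1) to 3141 genes called, 323 to 1220 transcripts of the whole table, 0 to 1 called transcripts of Tet2, Dnmt3a and Dnmt3b, and 1 to 2 called for use; values ran from -0.13 to 0.42 for Tet3, -0.070 to 0.53 for Dnmt3b and -0.0039 to 0.21 for Tdg. Calls for use were 2 without the filter and 0 with limma's diffSplice. The added log-ratio test called 1, though it recovered 0% of the transcripts changed in simulated data.

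Whether the replicate number marks a pairing could not be told from 3 libraries per genotype. Deviations of same-numbered libraries correlated at only 0.0602, 0.129 and 0.0422, but each correlated best with its own number. With the replicate block 2347 genes and 592 transcripts (1417 without it) were called, and Dnmt3a lost its call (0.48, edgeR adjusted p = 0.0707). Counts were lowest for Dnmt3l (0 to 155 per library), Tet1 (9.04 to 222) and Dnmt3b (160 to 368); no test varied the depth.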
